A study of Mus musculus with 10 samples.

Results

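The cell cycle genes described here are 36 genes of DNA replication and cell division, given as a fixed list of symbols. The list was chosen with earlier results of these data known. The list holds 10 S-phase genes and 26 mitotic genes, out of 43803 gene symbols in the count tables. They were followed in 10 single-cell RNA-seq libraries of adult mouse pituitary, of which 2 used 10x Genomics and 8 used Drop-seq. In Drop-seq, each cell shares a droplet with a bead whose DNA barcode tags the cell's mRNA. All mice were of the outbred CD1 strain, and cells were freed without enzymes. Wild-type (WT) mice of 8 weeks gave 3 female libraries (1 by 10x and 2 by Drop-seq, WT-8wk-0324-female and WT-8wk-0511-female) and 3 male libraries of the same make-up (the Drop-seq ones being WT-8wk-0324-male and WT-8wk-0511-male). The other Drop-seq libraries came from 8-week mt/hGRF females (1 library), a 13-week WT virgin female (1 library) and 13-week WT lactating females (2 libraries). The mt/hGRF transgene puts human growth hormone releasing hormone under a metallothionein promoter, which is active well beyond the hypothalamus. Neither lone library has a biological replicate, the study's methods describe pools of mice for some libraries, and the labels do not say whether each library stands for a separate animal, so p-values measure the spread between libraries.

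Before a cell divides it copies its DNA in S phase. The Mcm genes encode the helicase that opens the replication origins, Pcna the clamp that holds the polymerase on the DNA, Rrm2 and Tyms enzymes that make DNA building blocks, and Clspn a mediator of the replication checkpoint. In G2 and mitosis, cyclins with Cdk1, the Aurora and Polo kinases, kinesin motors, kinetochore proteins and the ubiquitin ligase activators that end mitosis take over. In the adult pituitary few cells divide, and growth hormone releasing hormone is known as a signal for somatotropes, the growth hormone cells, to proliferate.

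Promoters of such genes often carry CCAAT boxes, the sites of the factor NF-Y, and the cell cycle genes homology region (CHR), most often read as TTTGAA. A second form of the CHR is TTCGAA. The pieces below, from RefSeq (GRCm38.p6), lie within the 250 bases before the start of transcription. They were chosen because the 2 S-phase and 2 mitotic genes recur in the results, and they show CCAAT boxes in all 4 and the CHR in the mitotic pair. Capitals mark these motifs on either strand.
Mcm3, chr1:20820313-20820462, minus strand: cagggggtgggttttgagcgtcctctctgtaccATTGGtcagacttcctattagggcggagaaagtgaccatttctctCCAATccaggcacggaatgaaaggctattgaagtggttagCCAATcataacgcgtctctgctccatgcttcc
Clspn, chr4:126556785-126556934, plus strand: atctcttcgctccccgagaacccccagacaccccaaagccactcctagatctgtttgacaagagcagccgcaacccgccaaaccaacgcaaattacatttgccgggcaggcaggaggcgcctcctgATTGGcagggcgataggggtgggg
Top2a, chr11:99024190-99024339, minus strand: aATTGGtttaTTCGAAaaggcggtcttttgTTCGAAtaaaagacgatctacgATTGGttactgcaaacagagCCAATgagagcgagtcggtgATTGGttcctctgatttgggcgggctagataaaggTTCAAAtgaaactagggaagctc
Mki67, chr7:135716380-135716529, minus strand: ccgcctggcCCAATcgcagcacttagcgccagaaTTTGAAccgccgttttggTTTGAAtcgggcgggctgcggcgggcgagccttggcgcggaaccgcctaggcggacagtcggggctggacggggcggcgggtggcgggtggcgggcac

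Of the 36 genes, 30 (9 S-phase and 21 mitotic) had a promoter in the RefSeq table, and the 250 bases before the start were searched on both strands. TTTGAA stood in the windows of 1 S-phase gene (Mcm2) and 9 mitotic genes (Mki67, Top2a, Ccnb2, Cdk1, Ckap2l, Prc1, Kif11, Ube2c and Cdc20), and in 16% of all 32851 promoters. CCAAT stood in 8 of 9 S-phase and 18 of 21 mitotic windows, and in 33.8% of all promoters. The second form stood in Mcm7, Top2a and Bub1b, and in 1.34% of all promoters. An E2F motif (TTTCCCGC, TTTCGCGC, TTTGCCGC or TTTGGCGC), the site of the factors that switch on S-phase genes, stood in Mcm5, Mcm6, Mcm7 and Cdk1, and in 1.86% of all promoters. These are matches of letters, not bound sites.

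The values are counts of unique molecular identifiers (UMIs), each standing for 1 captured mRNA molecule. After the study's limits on UMIs, genes and mitochondrial share, 978 to 5256 barcodes per library remained, with 960289 to 5080590 UMIs per library and a median of 534 to 1246 UMIs per barcode. Together the libraries held 3905 UMIs of S-phase genes and 10315 of mitotic genes, among 27438118 UMIs. At this depth most barcodes held no UMI of any one gene, so levels are given per library, as UMIs per 10000 UMIs of all genes. Kif11, a kinesin that pushes the spindle poles apart, had no UMI in either lactating library, and every other gene was seen in all 10 libraries. The 2 10x libraries shared 6 barcodes, none of them among those with 2 or more mitotic UMIs. Reads of Mcm7 can overlap 3 microRNA genes on its strand. Clspn, Top2a, Nusap1, Tpx2 and Kif11 also overlap another annotated gene on their own strand. Pcna and Ccnb2 have pseudogene copies in the tables. The counts of all these genes carry that uncertainty.

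One kind of barcode stood apart and touches every result below. In 844 of 23432 kept barcodes, ribosomal protein pseudogenes made up at least 1.5% of the UMIs, a limit set after the distribution of this share was seen. These pseudogene-rich barcodes were common in the 8-week WT libraries (5.85% to 15.6% of barcodes) and rare in the mt/hGRF, virgin and lactating libraries (0% to 0.673%). In the 10x female library they held 30.1% of all UMIs and 75.5% of the mitotic UMIs, and in the 10x male library 52.2% and 90.4%. In the Drop-seq libraries they held 67.2% of the mitotic UMIs of WT-8wk-0511-female, 48.2% of WT-8wk-0511-male, 40.0% of WT-8wk-0324-male and 3.69% of WT-8wk-0324-female. They were low in Malat1, a nuclear RNA abundant in most cells, at 5.25 to 155 per 10000 over the 9 libraries that held any, against 490 to 1779 in the other barcodes. Pou1f1, the factor that defines somatotropes, lactotropes and thyrotropes, was at 0 to 1.25 per 10000 in them against 3.83 to 6.30. Ribosomal protein genes were at 4719 and 5080 per 10000 in them in the 10x female and male libraries, against 368 and 353 in the other barcodes. In the Drop-seq libraries that held any they were at 380 to 1032 against 70.6 to 128. The median depth of pseudogene-rich barcodes was 3023 and 19685 UMIs in the 10x female and male libraries, against 1235 and 970. What these barcodes are, and whether the study's later removal of clusters took them out, was not tested. The sums, the tests and the genes with the most UMIs are given with and without them, and other levels are with all kept barcodes unless stated.

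The S-phase genes together were at 1.69 UMIs per 10000 in the 10x female and 1.39 in the 10x male library. The WT Drop-seq libraries of 8 weeks were at 1.14 (WT-8wk-0324-female), 2.14 (WT-8wk-0511-female), 2.24 (WT-8wk-0324-male) and 1.65 (WT-8wk-0511-male). The level was 1.96 in the mt/hGRF, 1.12 in the virgin, and 0.956 and 0.945 in the lactating libraries. With all kept barcodes the 2 lactating libraries were thus the lowest, and males and females overlapped.

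The mitotic genes together were at 3.89 in the 10x female and 3.41 in the 10x male library. They stood at 3.38 in WT-8wk-0324-female, 4.69 in WT-8wk-0511-female, 5.09 in WT-8wk-0324-male and 3.22 in WT-8wk-0511-male. The mt/hGRF library was the highest of the kept barcodes at 6.56, against 2.66 in the virgin and 2.38 and 3.71 in the lactating libraries. Mitotic UMIs outnumbered S-phase UMIs in every library, by 1.95 (WT-8wk-0511-male) to 3.93 times (lactating replicate 2), with a median of 2.42. That order did not hold for the 10x male library without the pseudogene-rich barcodes, where 166 mitotic stood against 227 S-phase UMIs. The sums cover 26 mitotic and 10 S-phase genes, so these ratios do not compare levels per gene.

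**Figure D1:**
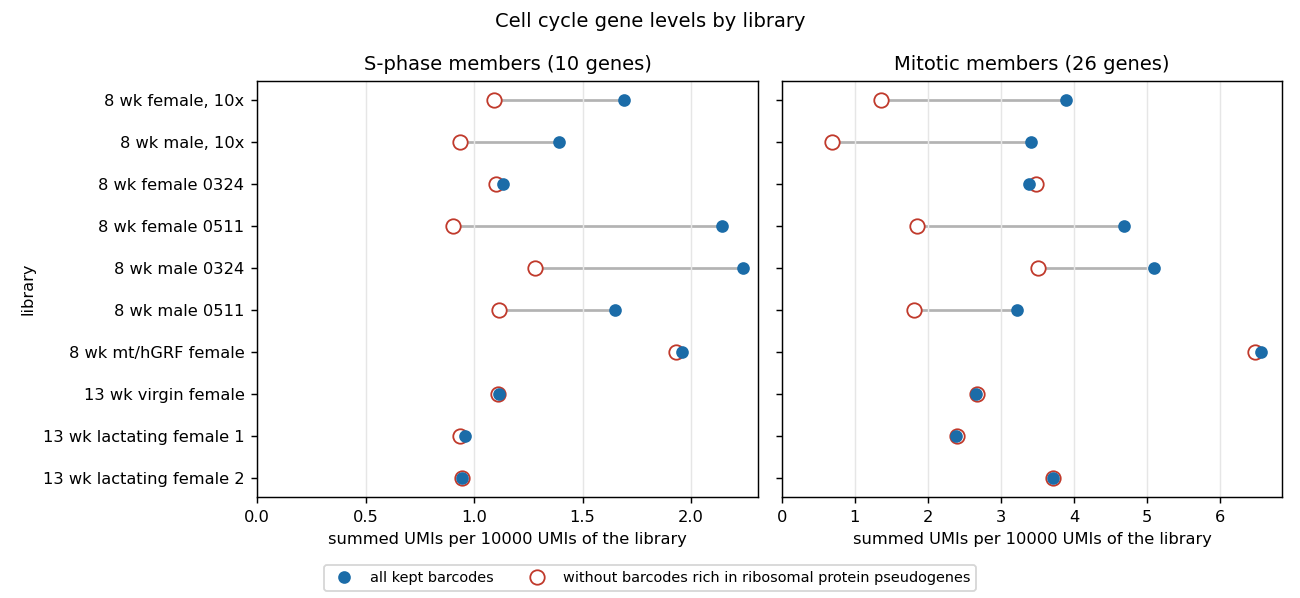
Summed UMIs of the 10 S-phase genes (left) and the 26 mitotic genes (right) per 10000 UMIs, 1 row per library. Filled points use all kept barcodes and open circles leave out the pseudogene-rich ones. The 2 agree in the mt/hGRF, virgin and lactating libraries, and the 10x male library falls from 3.41 to 0.684 mitotic UMIs per 10000.

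With the pseudogene-rich barcodes left out, the S-phase level lay between 0.905 and 1.28 in the 9 libraries other than mt/hGRF, which stood at 1.93. The mitotic level fell to 1.36 and 0.684 in the 10x libraries and to 1.84 and 1.81 in WT-8wk-0511-female and WT-8wk-0511-male. It was 3.48 and 3.51 in WT-8wk-0324-female and WT-8wk-0324-male, 2.67 in the virgin, 2.39 and 3.71 in the lactating, and 6.48 in the mt/hGRF library. So the order of the 8-week WT libraries changed, and mt/hGRF was the highest on both lists. The order with pseudogene-rich barcodes kept depends on the study's upper limit on genes per barcode. With no such limit, 35, 49 and 38 more barcodes entered WT-8wk-0324-male, WT-8wk-0511-female and WT-8wk-0511-male, and their mitotic levels became 11.5, 11.3 and 8.30, above the 6.41 of mt/hGRF. Their S-phase levels became 5.84, 4.01 and 3.20 against 1.92 in mt/hGRF. With neither the limit nor the pseudogene-rich barcodes, mt/hGRF was again the highest on both lists (6.33 mitotic against 0.920 to 3.68, and 1.90 S-phase against 0.907 to 1.29). Without the pseudogene-rich barcodes WT-8wk-0511-female had the lowest S-phase level, at 0.905 with the limit and 0.907 without it. In each setting this was below both lactating libraries.

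The genes did not take equal part in this. Pseudogene-rich barcodes held 85.4% of the UMIs of Aurkb, a kinase that corrects chromosome attachment, 81.8% of Ccnb1, the mitotic cyclin B1, and 74.7% of Ube2c, which feeds ubiquitin to the anaphase promoting complex. They held 70.7% of Mcm3, 66.4% of Birc5 (survivin, a partner of Aurkb) and 62.0% of Cdc20, an activator of the same complex. At the other end they held 2.34% of the UMIs of Mki67, the Ki-67 proliferation antigen, 4.83% of Mcm2, 5.86% of Ckap2l, a spindle protein, and 9.58% of Pcna.

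Among the 5 S-phase genes with the most UMIs, Mcm7 was at 0.786 and 0.774 per 10000 in the 10x libraries and at 0.190 to 0.429 in the Drop-seq libraries. Among the other barcodes it was at 0.256 in both 10x libraries, inside the Drop-seq range of 0.188 to 0.344. Mcm7 made up 51.2% of the S-phase UMIs of the 10x libraries against 20.5% by Drop-seq, and 25.1% against 21.3% without those barcodes. Pcna was lower in the 10x libraries (0.122 and 0.0925) than in any Drop-seq library (0.133 to 0.395), but at 0.142 and 0.144 without the pseudogene-rich barcodes it lay inside their range (0.133 to 0.392). Platform and library preparation cannot be told apart from this.

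Mcm3 ranged from 0.0181 in lactating replicate 2 to 0.534 in WT-8wk-0511-female, where it fell to 0.0557 without the pseudogene-rich barcodes. Tyms ran from 0.0812 (WT-8wk-0511-female) to 0.193 (WT-8wk-0324-male), with a median of 0.129. Without those barcodes it was at 0.252 and 0.247 in the 10x libraries, above the Drop-seq range of 0.0487 to 0.160. Clspn stood at 0.428 in the mt/hGRF library (102 UMIs) and at 0.0625 to 0.203 in the other 9. It was at 0.430 in mt/hGRF with the pseudogene-rich barcodes left out, and the 10x male library was then the lowest (0.00824).

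Of the 8 mitotic genes with the most UMIs, Mki67 separated the libraries most. Its level was 1.38 in mt/hGRF (329 UMIs) and 0.354, 0.335, 0.180 and 0.243 in WT-8wk-0324-female, WT-8wk-0324-male, WT-8wk-0511-female and WT-8wk-0511-male. In the older females it was 0.268 (virgin), 0.175 and 0.256 (lactating), and in the 10x libraries 0.0867 (female) and 0.0217 (male). No other library came near the mt/hGRF level, and leaving out the pseudogene-rich barcodes left it at 1.38.

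Cenpf, a kinetochore protein, was highest in mt/hGRF (0.739) and lactating replicate 2 (0.703) and lay between 0.234 and 0.443 elsewhere. These 2 libraries were also the highest among the other barcodes (0.733 and 0.703), and the 10x male library was the lowest (0.111). Top2a, the topoisomerase that untangles sister chromatids, was highest in WT-8wk-0511-female (0.957) and mt/hGRF (0.752), and in WT-8wk-0511-female it fell to 0.202 without the pseudogene-rich barcodes. Cenpe, the kinesin of the kinetochore, was at 0.0383 and 0.0335 in the 10x libraries and at 0.146 to 0.365 in every Drop-seq library. In the other barcodes Cenpe was at 0.0110 and 0.00412 against 0.116 to 0.346. Ube2c ran the other way with all barcodes, at 0.732 and 0.679 by 10x and 0.0725 to 0.497 by Drop-seq, but not without the pseudogene-rich ones (0.0694 and 0.0330 against 0.0253 to 0.373).

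Prc1, which bundles the microtubules of the central spindle, ranged from 0.175 in lactating replicate 1 to 0.603 in WT-8wk-0511-female. Among the other barcodes WT-8wk-0511-female stood at 0.188, and Prc1 ranged from 0.0247 in the 10x male to 0.333 in the mt/hGRF library. Birc5 was at 0.270 and 0.398 in the 10x libraries, and at 0.0511 and 0.0124 without the pseudogene-rich barcodes. Cdc20 was at 0.344 and 0.303 there, and at 0.0840 and 0.0412 without them. The 10x levels of Birc5, Cdc20 and Ube2c thus rested mostly on those barcodes, while those of Mki67 did not.

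The other 5 S-phase genes held 101 (Rrm2) to 292 (Mcm4) UMIs over all libraries. Mcm2 ranged from 0.0413 in the 10x male to 0.160 in the mt/hGRF library, and Mcm5 from 0.0119 in lactating replicate 1 to 0.101 in mt/hGRF. Rrm2 was at 0.00197 in the 10x male and 0.0840 in the mt/hGRF library. Mcm4 was highest in WT-8wk-0324-male (0.355) and Mcm6 in WT-8wk-0511-female (0.232), and both were lowest in lactating replicate 1. Of the 10 S-phase genes 5 were thus highest in mt/hGRF and 4 lowest in lactating replicate 1, and these counts were again 5 and 4 without the pseudogene-rich barcodes.

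Among the other 18 mitotic genes, the 3 cyclins differed from each other. Ccna2 (cyclin A2) was highest in WT-8wk-0324-male (0.233), Ccnb1 in the 10x female (0.413) and Ccnb2 in the mt/hGRF library (0.164). Ccnb1 was at 0.0252 in mt/hGRF, where Ccnb2 was at its highest. Leaving out the pseudogene-rich barcodes took Ccnb1 to 0.0219 in the 10x female library, and it was then highest in WT-8wk-0324-male (0.0815). Cdk1, the kinase they bind, ranged from 0.0198 in lactating replicate 1 to 0.116 in WT-8wk-0511-female.

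The kinases and checkpoint genes were scarce, apart from Aurkb at 0.309 and 0.366 in the 10x libraries and a median of 0.0441 over all 10. Aurkb was at 0.0183 and 0.00824 in the 10x libraries without the pseudogene-rich barcodes. Aurka had 67 UMIs in all, Plk1 107, and the spindle checkpoint kinases Bub1 and Bub1b 135 and 41. Plk1 was highest in WT-8wk-0324-female (0.156), and Aurka, Bub1 and Bub1b in WT-8wk-0324-male (0.0811, 0.162 and 0.0710). With so few UMIs a single library's level rests on a handful of molecules.

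The remaining spindle, kinetochore and kinesin genes fell into those highest in mt/hGRF and those highest in WT-8wk-0324-male. Nusap1 (0.336), Hmmr (0.349) and Ckap2l (0.269), which bind spindle microtubules, were highest in mt/hGRF, as were Knl1 (0.265), a kinetochore scaffold, and Esco2 (0.218). Tpx2, the activator of Aurka (0.284), and the kinesins Kif11 (0.0710), Kif20a (0.132) and Kif23 (0.274) were highest in WT-8wk-0324-male. In all, 9 of 26 mitotic genes were highest in mt/hGRF and 8 in WT-8wk-0324-male, and 10 were lowest in the 10x male library. Leaving out the pseudogene-rich barcodes, 14 were highest in mt/hGRF, 7 in WT-8wk-0324-male and 3 in WT-8wk-0324-female, and 16 were lowest in the 10x male library.

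**Figure D2:**
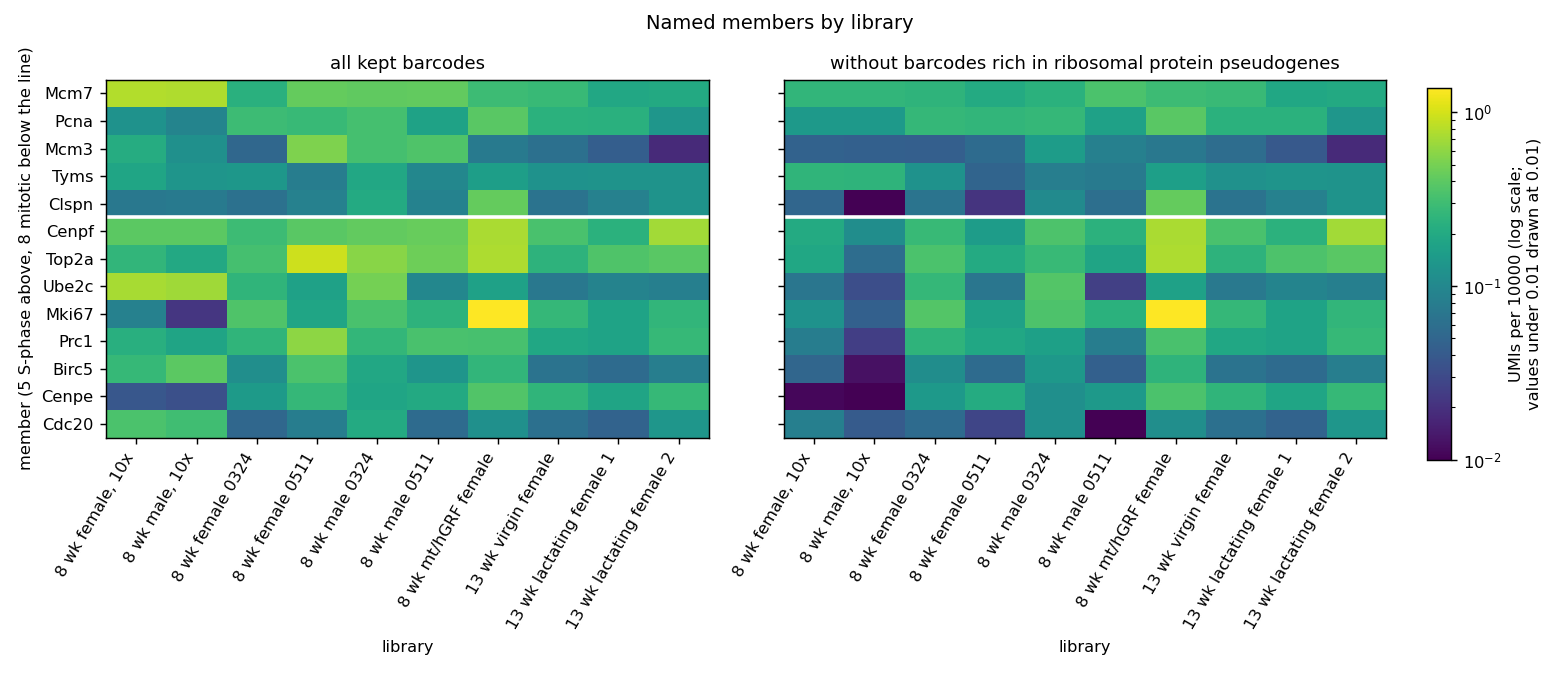
Levels of the 5 S-phase and 8 mitotic genes with the most UMIs (rows) in each library (columns), as UMIs per 10000 on a log colour scale, with all kept barcodes (left) and without the pseudogene-rich ones (right). Mki67 in mt/hGRF is the brightest cell at 1.38, and Mcm7 and Ube2c are bright in the 10x columns on the left only.

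The next comparison asks whether S-phase and mitotic genes were found in the same barcodes. Barcodes with at least 2 mitotic UMIs numbered 31 to 205 per library and held 74.8% to 92.9% of its mitotic UMIs. The S-phase level in them was higher than in the other barcodes in 10 of 10 libraries. It ran from 1.83 (10x male) through a median of 6.16 to 11.8 (mt/hGRF) per 10000, against 0.675 to 1.47 in the other barcodes. The 2 ranges did not overlap. Barcodes with 2 or more mitotic UMIs were also deeper, with a library median of 779 to 21210 UMIs against 529 to 1225, so levels are set against all UMIs of each kind of barcode.

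Tested over all genes with edgeR (UMIs summed per library and kind of barcode, library as a block), 9 of 10 S-phase genes were higher in barcodes with mitotic UMIs and none was lower. Of all 16590 genes tested, 16.4% were called higher and 33.8% in either direction, so the barcodes differed broadly. The median log2 fold change was 2.18 over the 10 S-phase genes and -0.23 over all genes. Clspn had a median of 0.848 per 10000 in barcodes with mitotic UMIs and 0.0286 in the others, a log2 fold change of 4.98 ± 0.44 (SE, adjusted p = 4.19e-10). Rrm2, the small subunit of ribonucleotide reductase, was higher by 5.08 ± 0.58 (log2, adjusted p = 1.33e-07) and Mcm3 by 3.39 ± 0.40 (adjusted p = 2.33e-07). The other Mcm genes called, Mcm4, Mcm5, Mcm6 and Mcm7, were higher by 2.05 to 2.27 on the log2 scale. Tyms was higher by 1.92 ± 0.38 and Pcna by 1.53 ± 0.35 (adjusted p = 0.00214). Mcm2 did not pass, at 0.66 ± 0.44 (adjusted p = 0.239).

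Among barcodes that were not pseudogene-rich all 10 S-phase genes were called higher, where 4.42% of 12054 genes were, and 11.5% in either direction. Clspn then stood at 5.25 ± 0.31 and Rrm2 at 5.67 ± 0.46 (edgeR, log2). Mcm7 stood at 1.09 ± 0.28 and Mcm2 at 1.35 ± 0.37 (adjusted p = 0.00441). The S-phase level was still higher in the barcodes with mitotic UMIs in 10 of 10 libraries, at 2.25 to 11.8 against 0.654 to 1.14. Depth was also made equal by thinning barcodes to 500 UMIs, which kept 17832 barcodes and left out 5600 shallower ones (5.33% to 43.7% of a library). Then 7 of the 9 S-phase genes that could be tested were higher, where 6.39% of 7765 genes were and 34.7% were called in either direction (edgeR). In that fit the median log2 fold change over all genes was -0.76, Mcm2 and Mcm3 missed the threshold and Mcm5 could not be tested.

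In the reverse direction, 19 to 110 barcodes per library held 2 or more S-phase UMIs. Their mitotic level was 5.80 (10x male) to 47.7 (mt/hGRF) per 10000, with a median of 15.4, against 1.32 to 3.91 in the other barcodes, again without overlap. Of the 26 mitotic genes 25 were higher and none lower (edgeR), where 16.7% of 16509 genes were called higher and 34.2% in either direction. Esco2, which ties sister chromatids together during replication, had the smallest p, at a log2 fold change of 4.13 ± 0.38 (adjusted p = 7.79e-14). That role lies in S phase, so Esco2 could as well stand on the S-phase list, and its call says little about mitotic genes. Birc5 followed at 3.61 ± 0.36, Top2a at 3.29 ± 0.33, Prc1 at 3.18 ± 0.33 and Aurkb at 3.95 ± 0.43. Kif23, a kinesin of cell cleavage, was higher by 2.87 ± 0.33, Ccnb1 by 3.61 ± 0.46 and Cdk1, the kinase that drives entry into mitosis, by 3.15 ± 0.41. Aurka, the spindle pole kinase, did not pass at 1.26 ± 0.64 (adjusted p = 0.114).

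Among barcodes that were not pseudogene-rich 23 of 25 mitotic genes tested were higher, where 2.65% of 12361 genes were, and 9.9% in either direction. Aurka and Plk1, the Polo kinase, missed the threshold, and Kif11 had too few UMIs for the test. The summed mitotic level was 3.10 to 48.2 per 10000 against 0.594 to 3.45 in the other barcodes, so these ranges overlapped, although it was higher in 10 of 10 libraries. Top2a was higher by 3.57 ± 0.22, Mki67 by 3.40 ± 0.24 and Esco2 by 4.36 ± 0.33 (edgeR, log2). Among the 17832 barcodes that could be thinned to 500 UMIs the count was 15 of the 19 genes that could be tested, where 2.14% of 7242 genes were called higher and 51.4% in either direction. This setting both left out shallow barcodes and thinned the others. Only 0.299% to 2.14% of a library's thinned barcodes held 2 or more S-phase UMIs. The mitotic sum was higher in them in 10 of 10 libraries, but single genes were uneven. Top2a and Esco2 were each higher in 8 libraries and lower in 2, Ube2c higher in 2 and lower in 8, and Cdk1 higher in 1 and lower in 9. In that fit the median log2 fold change over all genes was -1.40, against -0.22 with the UMIs as deposited.

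**Figure D3:**
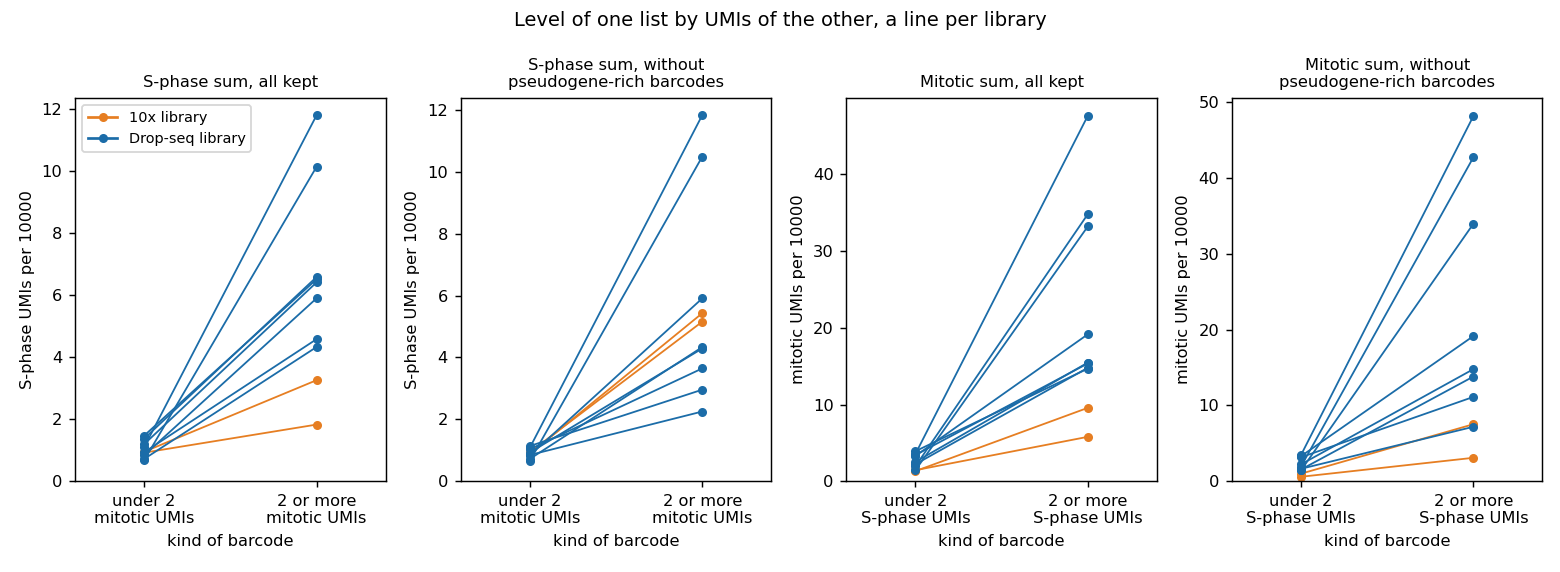
Level of one gene list in barcodes with under 2, and with 2 or more, UMIs of the other list. Each line is a library (10x in orange, Drop-seq in blue), the y axis is in UMIs per 10000, and panels show all kept barcodes or those that are not pseudogene-rich. Every line rises, and the mt/hGRF library reaches 11.8 S-phase and 47.7 mitotic UMIs per 10000.

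Other genes of the cycle, on lists drawn up with earlier results of these data known, were read in the same fits. Of 22 further replication genes, 17 were higher and none lower in barcodes with mitotic UMIs, where 16.4% of all genes were called higher. Cdc6, which loads the Mcm helicase, was higher by 4.66 ± 0.46 on the log2 scale and Prim1, a primase subunit, by 2.96 ± 0.35 (edgeR). Of 33 further mitotic genes, 29 were higher and 1 lower in barcodes with S-phase UMIs, among them Spc25, a kinetochore protein, at 3.71 ± 0.40, and in that fit 16.7% of all genes were called higher and 34.2% in either direction. Of 14 G1 genes (cyclins, their kinases, E2F factors and the Rb family), 5 were higher and 2 lower in barcodes with mitotic UMIs. That is 7 of 14 called, where 33.8% of all genes were. Of the 13 that could be tested without the pseudogene-rich barcodes, 5 were called, all higher, where 11.5% of all genes were called. Ccne2 (cyclin E2) rose by 2.30 ± 0.37 and Cdk2, its kinase, by 2.29 ± 0.44, while Ccnd3 (cyclin D3) fell by 1.31 and Cdk4 by 1.04 on the log2 scale. Neither Ccnd3 nor Cdk4 was called without the pseudogene-rich barcodes, and 3 of the 6 inhibitors of these kinases that could be tested were then higher, among them Cdkn1a (p21) by 1.83 ± 0.24. With all barcodes 2 of 7 inhibitors were higher and none lower.

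Pou1f1 was lower in barcodes with mitotic UMIs, at a log2 fold change of -1.36 ± 0.41 with all barcodes (edgeR adjusted p = 0.013). Without the pseudogene-rich barcodes the log2 fold change was -0.42 ± 0.17 (adjusted p = 0.0876), and Pou1f1 was at 2.60 to 6.85 per 10000 against 3.89 to 6.28. In barcodes with S-phase UMIs it fell by 0.90 with an adjusted p of 0.000104 in the same setting (edgeR). Gh, growth hormone, fell there by 0.75 (adjusted p = 0.0283), whereas Prl, Pomc and Sox2, a marker of pituitary stem cells, did not pass in that setting. With all barcodes, the level of Pou1f1 in barcodes with mitotic UMIs ran from 0.0724 to 6.54 per 10000 over the 10 libraries.

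Barcodes were then assigned to cell classes from markers that include no hormone and no cell cycle gene (at least 2 marker UMIs and at least 2 times the next class). The limits were set after the markers were seen, and several somatotrope, lactotrope and gonadotrope markers come from a list the study chose on these samples. This left 58.1% of barcodes and 54.5% of mitotic UMIs without a class, and 8 classes had 20 or more barcodes in at least 2 libraries. Stromal barcodes, marked by collagens, Dcn and Lum, held 12.7% of the mitotic UMIs with 8.86% of the barcodes. Their mitotic level had a median of 4.44 per 10000 (0.410 to 16.8 over 10 libraries), the highest median of the 8. In lactating replicate 2, 955 stromal barcodes held 689 of 1841 mitotic UMIs (37.4%).

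The hormone cell classes were lower. The median mitotic level was 2.67 in lactotropes (Lac), 1.60 in somatotropes (Som), 1.43 in gonadotropes (Gona) and 0.941 in melanotropes (Mel). Sox2+ barcodes had a median of 2.62 with a range of 0.278 to 9.88, macrophages 1.72 (0.406 to 7.60) and red blood cells 2.04 (0.958 to 7.76). The mitotic ranges over libraries overlapped for every pair of the 8 classes. Free RNA in droplets also gives UMIs. Barcodes left out for too few UMIs or genes held 1.94 and 1.46 mitotic UMIs per 10000 in the 10x female and male libraries, at or above several of these medians. They were also above the 1.36 and 0.684 of the kept 10x barcodes that were not pseudogene-rich. Those sets differ: of the left-out 10x barcodes, 15124 of 97678 (female) and 11751 of 97753 (male) were pseudogene-rich. In the Drop-seq libraries such barcodes held 0.639 to 6.80. In WT-8wk-0511-female (6.80) and WT-8wk-0511-male (4.54) they were above the median over libraries of each of the 8 classes. There 1206 of 3283 and 728 of 2703 such barcodes were pseudogene-rich. In mt/hGRF (2.65) the 430 such barcodes held 293860 UMIs, so not all of them were near-empty droplets. The part of free RNA in the class levels was not tested, so a level of this size is not read as expression by the class. S-phase medians ran from 0.316 in red blood cells and 0.714 in Mel to 1.49 in macrophages.

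**Figure D4:**
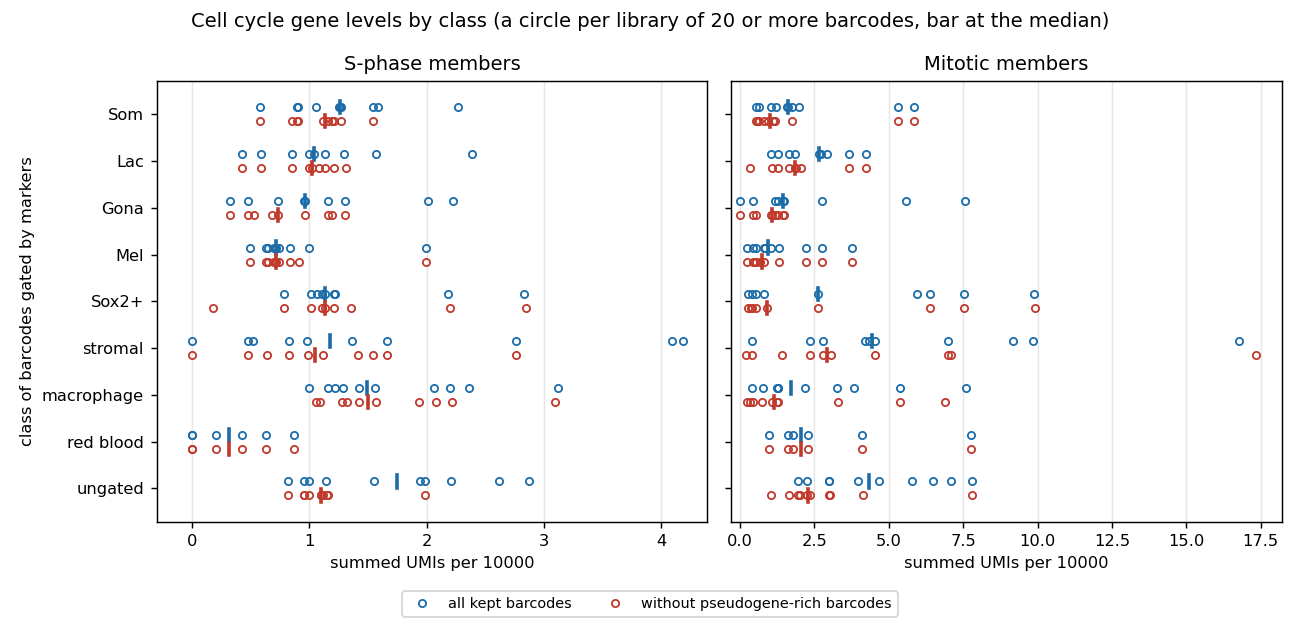
Summed S-phase (left) and mitotic (right) UMIs per 10000 in each marker-gated class. Circles are libraries with 20 or more barcodes of the class, bars are medians over them, blue uses all kept barcodes and red leaves out the pseudogene-rich ones. Stromal barcodes have the highest mitotic median of the 8 classes with 20 or more barcodes in at least 2 libraries (4.44, and 2.93 without the pseudogene-rich barcodes), and the blue mitotic circles of these classes overlap.

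With the pseudogene-rich barcodes left out, the median mitotic level was 2.93 in stromal, 2.04 in red blood, 1.84 in Lac, 1.15 in macrophage, 1.08 in Gona, 1.02 in Som, 0.902 in Sox2+ and 0.738 in Mel barcodes. Som barcodes of mt/hGRF stood at 5.31 per 10000 (153 barcodes, 124 mitotic UMIs), against 5.85 in WT-8wk-0324-female (55 barcodes, 46 UMIs) and 0.806 in WT-8wk-0511-female. The 2 WT female libraries thus lay on either side of mt/hGRF. In lactating replicate 1, only 13 barcodes of the T and NK class held 104 of 601 mitotic UMIs (17.3%), so a few barcodes of a minor class can set much of a library's sum.

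Only 2 of the 36 genes, Cenpf and Ube2c, had enough UMIs for the test between classes (edgeR, 4612 genes, each class against the mean of the others, library as a block). Cenpf was lower in Mel (log2 fold change -1.42 ± 0.49) and Som (-1.17 ± 0.45), where 13.1% and 7.96% of all genes were called lower. Ube2c was lower in Mel (-3.55 ± 0.70), Som (-2.61 ± 0.60) and Lac (-1.48 ± 0.57), and 6.81% of all genes were called lower in Lac. In red blood cells Ube2c was higher by 5.60 ± 0.57 (adjusted p = 1.96e-13), where 4.21% of all genes were called higher. Neither gene was called in Gona, macrophage, Sox2+ or stromal barcodes, where 34.2%, 70%, 37% and 15.4% of all genes were called. Among barcodes that were not pseudogene-rich Ube2c no longer had enough UMIs, and the only call was Cenpf, higher in Sox2+ barcodes by 1.11 ± 0.40 (adjusted p = 0.0155), where 29.1% of 3737 genes were called higher. In that setting 30.5% of genes were called in Gona, 39% in Lac, 77.7% in macrophage, 38.5% in Mel, 8.16% in red blood, 35% in Som and 24.3% in stromal barcodes, and Cenpf in none of them. With a gate of 3 marker UMIs none of the 36 genes had enough UMIs to be tested. In the Drop-seq libraries alone only Cenpf did, and its single call was higher in Sox2+ barcodes, where 25% of 3505 genes were called higher.

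The first question between conditions was whether the sexes differed at 8 weeks (3 female against 3 male libraries, platform as a covariate). None of the 33 genes with enough UMIs was called, and 0% of 15521 genes were (edgeR). None reached an unadjusted p under 0.05, and DESeq2 called 0 of 34 (0.116% of 16437 genes). The edgeR fit called no gene at all, so it cannot tell no difference from one too small to see with these libraries. The same holds for the main edgeR fits of the comparisons below. The log2 ratio of female to male group means was -0.09 for the S-phase and 0.03 for the mitotic sum. With no upper limit on genes per barcode these were -0.54 and -0.27, and edgeR called 0 of 36 genes (0% of 18477). WT-8wk-0324-male was above WT-8wk-0324-female on both lists (2.24 against 1.14 and 5.09 against 3.38), and WT-8wk-0511-female was above WT-8wk-0511-male (2.14 against 1.65 and 4.69 against 3.22). With the pseudogene-rich barcodes left out, the mitotic levels of female and male were 3.48 and 3.51 in the WT-8wk-0324 pair and 1.84 and 1.81 in the WT-8wk-0511 pair. In that setting edgeR called 0 of 26 genes (0.064% of 14058 genes), and 1, Prc1, had an unadjusted p under 0.05. The sex difference was also compared between 10x and Drop-seq: none of the 35 genes tested was called, nor any of 17498 genes (edgeR), and none had an unadjusted p under 0.05.

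Lactation calls for more prolactin, and the question was whether cell cycle genes moved with it (2 lactating libraries against 1 virgin library, the spread shared over all 8 Drop-seq libraries). None of 36 genes was called, nor any of 18359 genes (0%, edgeR), 1 had an unadjusted p under 0.05 (1.67% of all genes did), and DESeq2 called 0 of 36 (0.013% of 38395 genes). That gene was Mcm5, at 0.0119 and 0.0161 per 10000 in the lactating and 0.0616 in the virgin library (log2 fold change -1.78 ± 0.78). S-phase sums were below the virgin level in both lactating libraries (0.956 and 0.945 against 1.12). Mitotic sums lay on either side of it (2.38 and 3.71 against 2.66). The median log2 fold change was 0.37 over the 36 genes and 0.04 over all genes. The median over the 36 genes was -0.09 without lactating replicate 2 (16 of 36 above 0) and 0.64 without replicate 1. With immune, red blood, endothelial and stromal barcodes left out it was 0.10, and the log2 ratio of the mitotic sum went from 0.20 to -0.05. Fitted on the 3 libraries of 13 weeks alone, edgeR called 0 of 31 genes but 209 of 14379 over all genes (1.45%), and 2 of the 31 had an unadjusted p under 0.05, as did 9.05% of all genes. Leaving out the pseudogene-rich barcodes, edgeR called 0 of 35 genes (0.0116% of 17309 genes) and 1 had an unadjusted p under 0.05.

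The last question was whether the mt/hGRF pituitary held more of these mRNAs than the WT female pituitary (1 library against the 2 WT Drop-seq females of 8 weeks, the spread shared as above). The mitochondrial limit had left out 1769 barcodes of mt/hGRF (2797 kept), 187 of WT-8wk-0324-female (978 kept) and 186 of WT-8wk-0511-female (1482 kept). These left-out barcodes held 4.48, 1.03 and 0.933 mitotic UMIs per 10000 in the same order. With 1 mt/hGRF library, as with 1 virgin library above, the condition cannot be told apart from library preparation. Both sums were higher in mt/hGRF than the mean of the 2 WT females, by a log2 ratio of 0.26 for S-phase and 0.70 for mitotic genes. The S-phase sum of WT-8wk-0511-female (2.14) was however above that of mt/hGRF (1.96). No gene was called by edgeR (0 of 36, and 0% of 18359 genes), 7 had an unadjusted p under 0.05, as did 10.5% of all genes, and DESeq2 called 1 of 28, Mki67 (1.39% of 13086 genes). Without WT-8wk-0324-female, edgeR called Mki67 higher and Mcm3 lower, where it called 3.46% of 17998 genes (623, of which 561 lower), and the S-phase ratio was -0.13. The remaining WT library was then WT-8wk-0511-female, whose Mcm3 level of 0.534 was 0.0557 without the pseudogene-rich barcodes, against 0.0716 in mt/hGRF in that setting. Without WT-8wk-0511-female, 0 of the 36 genes and 0.0111% of 17943 genes were called (edgeR), and the S-phase ratio was 0.79. Each of these sets 1 library against 1, with the spread taken from the other groups. With no upper limit on genes per barcode both ratios turned negative, at -0.44 for S-phase and -0.18 for mitotic genes, and edgeR called 0 of 36 genes (0% of 20689).

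Mki67 was at 1.38 per 10000 in mt/hGRF against 0.354 and 0.180 in the WT females, a log2 fold change of 2.58 ± 0.55 (edgeR adjusted p = 0.281, DESeq2 adjusted p = 0.0257). Clspn was at 0.428 against 0.0625 and 0.0870, a log2 fold change of 2.70 ± 0.63 (edgeR adjusted p = 0.281). Ccnb2, the second B-type cyclin, was at 0.164 against 0.0208 and 0.0522, at 2.29 ± 0.66 (edgeR adjusted p = 0.339). For each of these 3 genes the single mt/hGRF library was above both WT libraries, but one library gives no spread of its own. Ube2c (0.1680 against 0.2499 and 0.1683), Plk1 (0.0504 against 0.156 and 0.0522), Aurka, Bub1b and Kif11 were below both WT libraries. The fitted change was above 0 for 24 of the 36 genes.

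Leaving out the pseudogene-rich barcodes, which were rare in mt/hGRF, the log2 ratio became 0.94 for the S-phase sum (1.93 against 1.10 and 0.905) and 1.28 for the mitotic sum (6.48 against 3.48 and 1.84). Those barcodes held 1.54% of the mitotic UMIs of mt/hGRF, 3.69% of those of WT-8wk-0324-female and 67.2% of those of WT-8wk-0511-female. This setting, added after the data were seen, thus changed mostly the WT side of the ratios. In it the fitted change was above 0 for 33 of 35 genes tested and for 45.2% of all genes, with medians of 1.05 and -0.09. With all kept barcodes it was above 0 for 24 of 36 genes, with medians of 0.52 and -0.08. With all barcodes and no upper limit on genes it was above 0 for only 16 of 36 genes, with medians of -0.42 and -0.17. With no upper limit on genes per barcode the sums without pseudogene-rich barcodes gave 0.89 and 1.27, and the fitted change was above 0 for 32 of 35 genes. With that limit kept and the pseudogene-rich barcodes left out, edgeR called none of the 35 genes, and 5 of all 17309 genes (0.0289%). An unadjusted p under 0.05 (edgeR) was reached there by 11 of the 35, and by 6.94% of all genes. Clspn stood at 3.55 ± 0.68 and Mki67 at 2.54 ± 0.53. Of the other lists of replication, mitotic, G1 and inhibitor genes, 0 genes were called in any of the 3 comparisons of conditions, with or without the pseudogene-rich barcodes (edgeR). Most of the mt/hGRF mitotic UMIs (65.4%) were in barcodes without a class, and Som barcodes held 7.94%.

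Neutrophil genes were also high in mt/hGRF. Camp, a neutrophil granule gene, had 323 UMIs in mt/hGRF, 162 in lactating replicate 2 and 0 to 21 elsewhere, and Ngp had 157, 83 and 0 to 18. S100a8 was at 4.16 per 10000 in mt/hGRF, 2.11 in the 10x female and 0.997 in lactating replicate 2. Barcodes with 2 or more UMIs of neutrophil genes held 3.97% of the mt/hGRF mitotic UMIs (19 barcodes), 2.23% of those of WT-8wk-0511-female (10 barcodes) and 0.489% of those of lactating replicate 2 (7 barcodes). Without them the mt/hGRF log2 ratio of the mitotic sum was 0.67.

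The share of barcodes with 2 or more mitotic UMIs was 5.51% in mt/hGRF, 3.17% in WT-8wk-0324-female and 8.10% in WT-8wk-0511-female, so mt/hGRF lay between the WT females. Thinned to 500 UMIs, with shallower barcodes left out, the shares were 4.66%, 1.49% and 3.92% in the same order. Among thinned barcodes that were not pseudogene-rich they were 4.57%, 1.58% and 1.23%. These are shares of barcodes in single libraries, with no test.

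**Figure D5:**
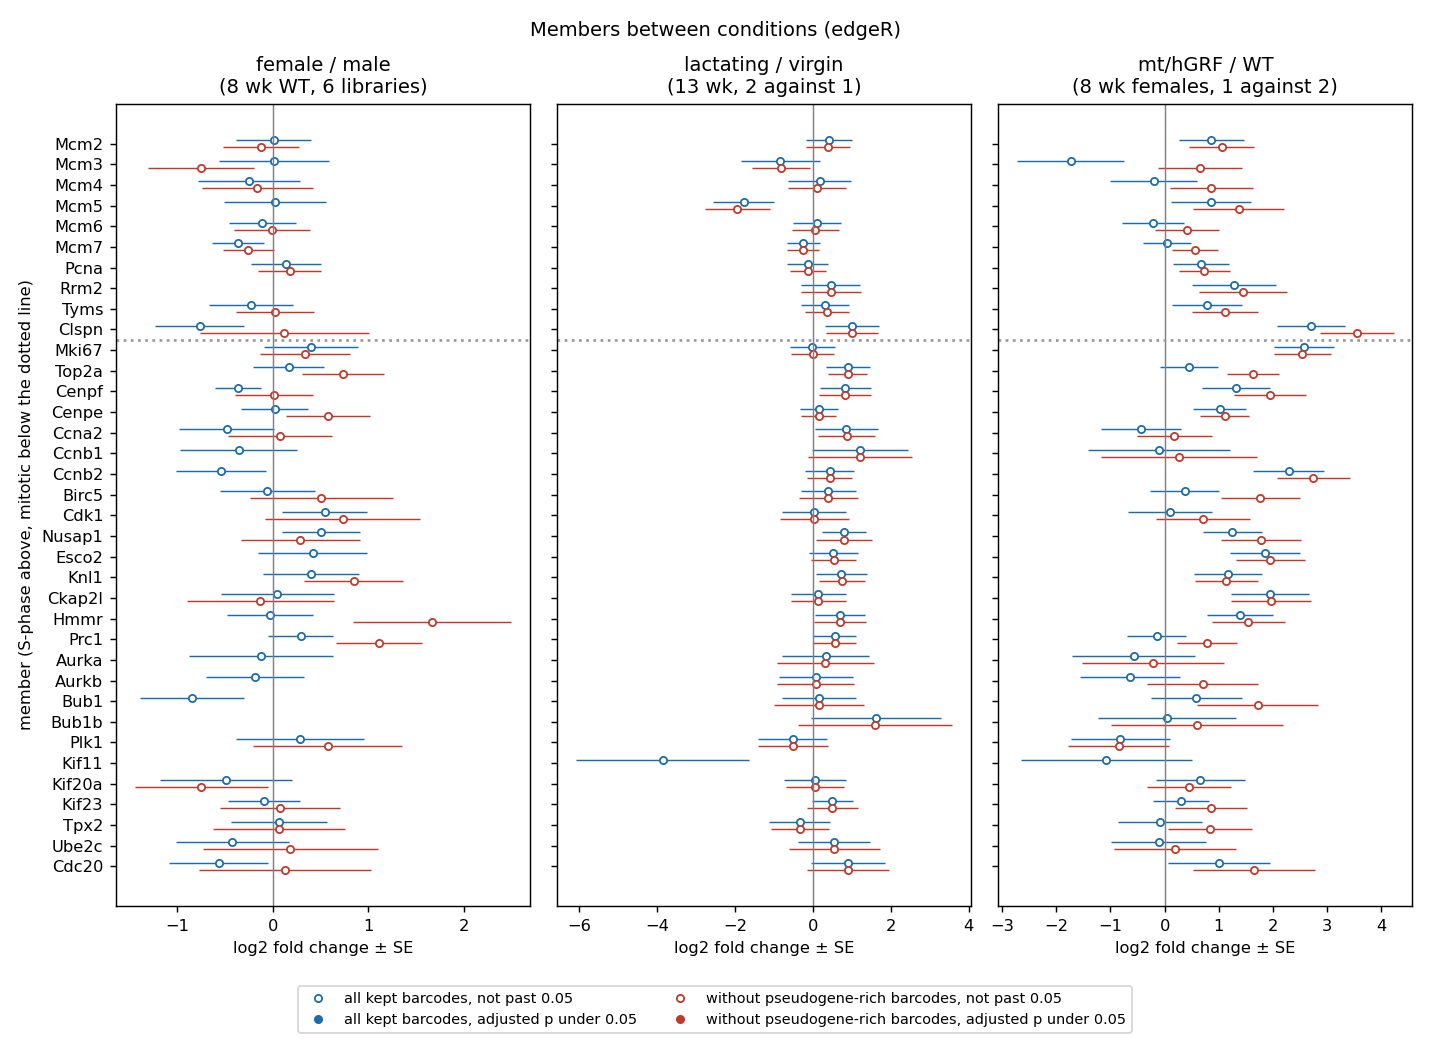
Log2 fold change ± SE (edgeR) of each of the 36 genes between the sexes (left), lactating and virgin (middle) and mt/hGRF and WT females (right), with all kept barcodes (blue) and without the pseudogene-rich ones (red). A gene with too few UMIs has no point. No point is filled, since none passed an adjusted p of 0.05, and on the right 33 of 35 red and 24 of 36 blue points lie above 0.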

How the data were processed

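The authors aligned reads to mm10 and deposited raw UMI counts per gene and barcode. The submitters' processing notes name STAR 2.5.2a and Cell Ranger, and Drop-seq reads were counted on Gencode exons. Nothing had been normalized. The 2 10x tables hold 100000 barcodes each, empty droplets included. Drop-seq tables list only genes that were seen, so a missing gene was taken as 0.

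Barcodes were kept by the study's limits: at least 300 UMIs and 100 to 4000 genes (Drop-seq), or more than 200 and fewer than 3000 genes (10x), and a mitochondrial share below 10%. Doublets were not called. After these limits the study also removed Drop-seq clusters it read as red blood cells, NK cells, low-quality cells and doublets. That step was not repeated here, so the kept barcodes can include some that the study discarded. 488 older 10x symbols were matched by Ensembl ID. UMIs were summed per library, barcode kind or class and tested with edgeR 4.0.16 in R 4.3.3 (TMM, filterByExpr, quasi-likelihood, two-sided, Benjamini-Hochberg over all genes tested, threshold 0.05), with DESeq2 1.42.0 as an alternative. The script was tested on simulated data. Sums over genes are descriptions with no test. Coordinates are on GRCm38. The text names the 5 S-phase and 8 mitotic genes with the most UMIs, genes called between conditions, and up to 8 called genes by p in the barcode and class comparisons. Other genes were named after their values were seen. The genes, lists and tests were chosen with earlier results of these data known. Leaving out pseudogene-rich barcodes or barcodes with neutrophil UMIs, and lifting the upper limit on genes per barcode, was added after seeing the data, as were the gene counts with 1 library of the lactating or WT pair left out. Total counts per library limit the precision: intervals are not given, and SEs cover the spread between libraries. Each SE is approximate, taken as the absolute log2 fold change over the square root of the quasi-likelihood F. For the lone mt/hGRF and virgin libraries the spread comes from the other Drop-seq groups.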

Additional observations from a re-analysis of the deposited data

Results flagged for a closer look

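Some barcodes that the filters left out also held mitotic UMIs, in data outside the comparisons. Barcodes with too many genes held 6.50 mitotic UMIs per 10000 in the 10x female library (155 barcodes, 3409 mitotic UMIs) and 6.56 in the 10x male library (84 barcodes, 1521 mitotic UMIs). By Drop-seq they held 17.8 in WT-8wk-0324-male (35 barcodes), 20.8 in WT-8wk-0511-female (49 barcodes) and 21.9 in WT-8wk-0511-male (39 barcodes). In these 5 libraries the kept barcodes were at 3.22 to 5.09. Adding the barcodes with too many genes and a mitochondrial share under 10% put WT-8wk-0324-male, WT-8wk-0511-female and WT-8wk-0511-male above mt/hGRF (11.5, 11.3 and 8.30 against 6.41). Of the barcodes with too many genes in the 5 libraries first named, 91, 35, 34, 47 and 35 were pseudogene-rich, in the same order. The few such barcodes of mt/hGRF (4), virgin (2), lactating replicate 2 (3) and WT-8wk-0324-female (4) held 0.655, 0.730, 1.76 and 1.08. Those levels were below the kept barcodes of the same libraries. Barcodes left out for their mitochondrial share held 4.48 in the mt/hGRF library (1769 barcodes, 746 mitotic UMIs) and 2.03 in lactating replicate 2 (652 barcodes, 148 mitotic UMIs), below the 6.56 and 3.71 of the kept barcodes.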

How the results depend on the processing

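Of 148 alternative values, 129 moved by less than 1 SD between libraries (sums) or kept a count within 1.5 times, and some of these sums changed sign. For the lactating and mt/hGRF sums that SD rests on only 2 libraries and is itself uncertain (0.0121 to 0.647, log2). Many kept counts were 0 against 0 in fits that called few or no genes at all, and say little. No sum has a test. The mt/hGRF count of called genes was 0, and became 1 with DESeq2 (Mki67, where 182 of 13086 genes were called), 2 with no filter on low counts (Mki67 and Clspn, where 861 of 38395 genes were) and 0 to 2 when 1 WT female library was left out: without WT-8wk-0324-female, Mki67 was higher and Mcm3 lower, and 623 of 17998 genes were called. Leaving out the pseudogene-rich barcodes moved the mt/hGRF log2 ratio of the S-phase sum to 0.94 and of the mitotic sum to 1.28, and to 1.07 for the mitotic sum at a limit of 3%. With no upper limit on genes per barcode the mt/hGRF ratios became -0.44 (S-phase) and -0.18 (mitotic), and the mitotic one 1.27 when pseudogene-rich barcodes were left out too. The S-phase ratio of the sexes became -0.54 without that limit. With Esco2 taken off the mitotic list, the mitotic log2 ratios were 0.02 (female over male), 0.20 (lactating over virgin) and 0.68 (mt/hGRF over WT). The S-phase ratio of lactating to virgin, -0.23, was -0.21 without hormone and mitochondrial genes in the denominator, -0.15 without Mcm7 and -0.32 in barcodes of 500 or more UMIs. Thinning to 500 UMIs, with shallower barcodes left out, gave 15 called mitotic genes in barcodes with S-phase UMIs, and fewer genes could be tested. Summed over classes, the 6 calls of 16 tests on the 36 genes were 0 with 3 marker UMIs, where none could be tested, 15 of 215 with DESeq2 and 45 of 288 with no filter. They were 1 of 8 in the Drop-seq libraries alone and 1 of 8 without the pseudogene-rich barcodes. Over all genes, 12265 of 36896 tests were called, 18074 of 107109 with DESeq2 and 23523 of 278608 with no filter. The S-phase log2 ratio of the sexes ranged from -0.32 to 0.12 when 1 library was left out, and the mitotic ratio from -0.10 to 0.27. The mt/hGRF S-phase ratio was -0.13 without WT-8wk-0324-female and 0.79 without WT-8wk-0511-female, and the lactating mitotic ratio 0.48 and -0.16 without replicates 1 and 2. The female and male libraries of a code share only that code. Their deviations correlated at 0.218 over 13505 genes, and the replicate block called 0 genes between the sexes. The cause of each shift was not tested.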
